A study of Arabidopsis thaliana with 6 samples.

Results

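HRU1 (AT3G03270) and 9 other genes of the universal stress protein family were followed in Arabidopsis thaliana plants short of oxygen. These 10 genes were given by locus, each has 1 probe set that the platform annotation assigns to it alone, and the array measured 13286 loci in this way. The 35S:PCO1 group consisted of 3 arrays of transgenic plants in which the 35S promoter of cauliflower mosaic virus, active in most plant tissues, drives PCO1 (plant cysteine oxidase 1). The wild type group consisted of 3 arrays of plants without the transgene. All 6 samples came from plants held for 4 h in darkness at 5% oxygen, beginning 2 h into the day, after growth on soil with 8 h of light and 16 h of dark. Their age is labelled both 4 weeks and 5 weeks, and their tissue both rosettes and whole plants. No probe set is assigned to PCO1 in the annotation used here, so the transgene could not serve to check the labels. The labels do not say how many transgenic lines were used or whether plants were pooled. The p-values are thus set by the scatter of these samples, part of which may be technical. Plants in normal air are not analysed here, and the values therefore set genotypes against each other under low oxygen and give no induction by it.

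Universal stress proteins are small cytoplasmic proteins that share an ancient fold with the bacterial protein UspA, and many of them bind ATP. Plant genomes hold a large family of them, and single members have been linked to drought, cold, oxidative stress and low oxygen. HRU1 (HYPOXIA RESPONSIVE UNIVERSAL STRESS PROTEIN 1) is known as a target of the group VII ethylene response factor RAP2.12. Its protein is reported to interact with the GTPase ROP2 and the NADPH oxidase RBOHD, and so to tie low oxygen to hydrogen peroxide production. Plant cysteine oxidases use oxygen to mark group VII factors for degradation. The comparison asks how HRU1 and its relatives stood in plants with raised PCO1, and whether HRU1 differed from the rest of the family.

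Values are log2 signals made by RMA (robust multi-array average), and a probe set was called when limma gave an adjusted p under 0.05 over all 22746 probe sets tested. Signals ran from 2.73 to 13.8, and array medians from 5.86 to 5.91. Wild type replicates 2 and 3 lay at the ends of the first 2 principal components, with 34.1% and 30.6% of the variance. The first also separated the groups, with 35S:PCO1 from 5.80 to 11.57 and wild type from -18.82 to -0.96. The leaf marker RCA, the activase of Rubisco, had a mean of 13.16 in 35S:PCO1 and 13.12 in wild type. It was the only matched gene of 11 leaf markers. The 4 matched of 10 root markers had log2 changes from -0.18 to 0.016, none called, and the 8 flower and seed markers had no matched probe set.

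HRU1 was lower in every 35S:PCO1 array than in any wild-type array, but the difference did not pass the threshold over all probe sets. Its log2 signal was 6.70, 6.63 and 6.96 in 35S:PCO1 replicates 1 to 3, against 7.97, 8.30 and 7.47 in wild type replicates 1 to 3. The groups did not overlap, and the wild-type values were the more scattered. The mean was 6.76 ± 0.17 (SD, n = 3) in 35S:PCO1 and 7.92 ± 0.42 (SD, n = 3) in wild type. The log2 change was -1.15 (SE 0.18, 95% interval -1.57 to -0.73), or 2.22-fold lower, with an unadjusted limma p of 0.000167 and an adjusted p of 0.0571. Fewer cells that hold the transcript and less transcript per cell cannot be told apart in such whole-tissue samples. By size this was rank 20 from the most negative among 22746 probe sets, and by p it was rank 65, where 60 probe sets were called.

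HRU1 passed or missed the threshold with the arrays that were used. Without wild type replicate 3, the lowest of the 3 wild-type values, the log2 change was -1.375 and HRU1 was called (limma, adjusted p = 0.00332). Without wild type replicate 2, the highest, it was -0.96 (limma, adjusted p = 0.0656). Without any 1 of the other arrays the adjusted p lay between 0.118 and 0.373. With arrays weighted by their quality HRU1 was called as well, at -1.18 (limma, adjusted p = 0.0036). That setting called 255 of all probe sets in place of 60, and the estimation of its weights stopped before full convergence. Centring each array on its median also led to a call (limma, adjusted p = 0.0427). The change was negative under all 14 settings with a test.

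**Figure D1:**
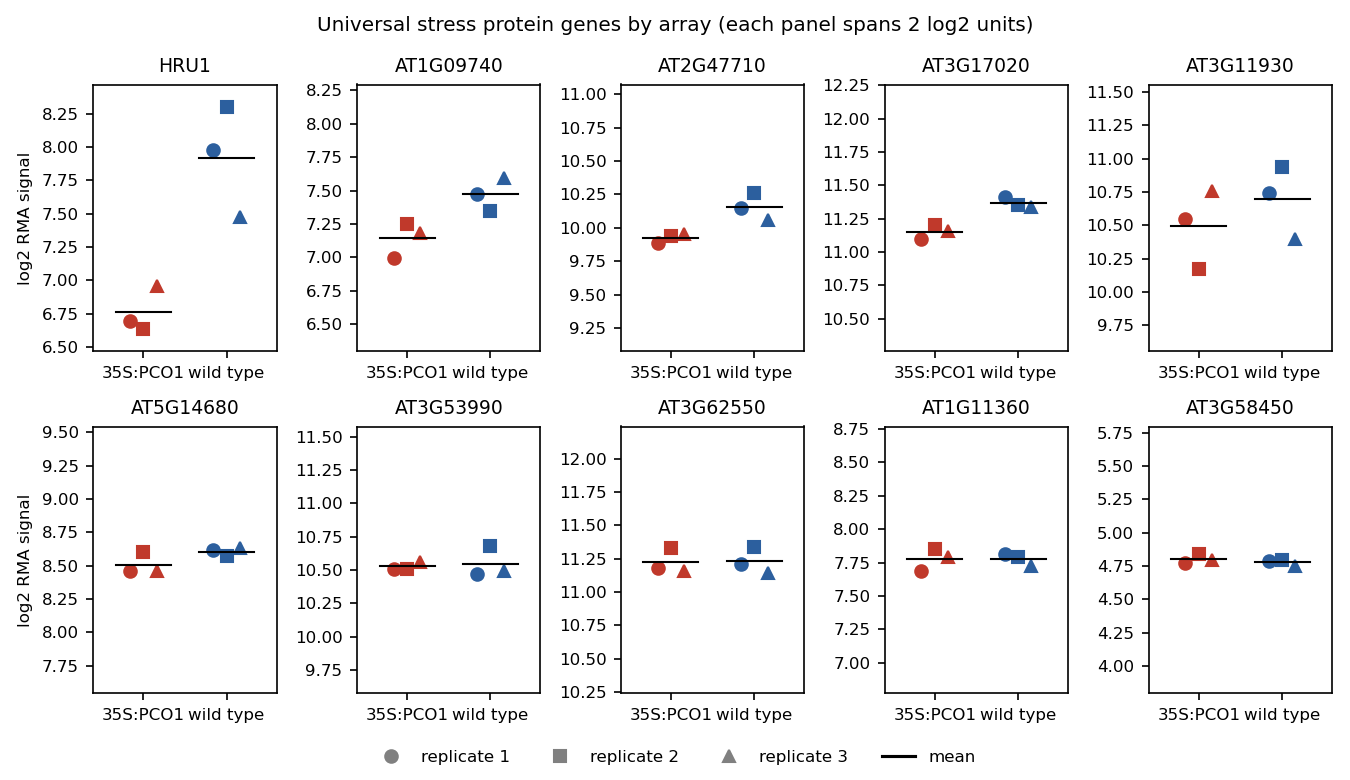
Log2 RMA signal of HRU1 and 9 other universal stress protein genes on each array, 35S:PCO1 on the left and wild type on the right of every panel; symbols mark replicates 1 to 3, lines mark group means (n = 3), and each panel spans 2 log2 units. HRU1 shows 35S:PCO1 values from 6.63 to 6.96 below wild-type values from 7.47 to 8.30, while the other panels show much closer groups.

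None of the other 9 genes was called. With HRU1 this is 0 of 10 by limma, 4 of them with an unadjusted p under 0.05, where limma called 0.264% of all probe sets and 10.4% had an unadjusted p under 0.05. The groups did not overlap in 4 of the 10 genes, all with 35S:PCO1 lower, against 10.5% of all probe sets. Without HRU1, around which the genes were chosen, 3 of the 9 had such groups and 3 had an unadjusted limma p under 0.05. Over the 9 genes the median log2 change was -0.10, with 7 changes negative and 2 positive, and over all probe sets it was -0.012. Log2 changes of the 9 ranged from -0.33 to 0.024.

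AT1G09740 had the most negative change of the 9. Its log2 signal was 6.998, 7.246 and 7.181 in 35S:PCO1 and 7.474, 7.347 and 7.591 in wild type. Every 35S:PCO1 value lay below every wild-type value, by a narrow margin of 35S:PCO1 replicate 2 to wild type replicate 2. The log2 change was -0.33 (SE 0.088, 95% interval -0.53 to -0.13, limma, adjusted p = 0.259).

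AT2G47710 and AT3G17020 were bright genes whose groups also did not overlap. AT2G47710 had 9.89, 9.94 and 9.96 in 35S:PCO1 and 10.15, 10.26 and 10.06 in wild type replicates 1 to 3. Its 35S:PCO1 values were close together (SD 0.035, n = 3). The log2 change was -0.23 (SE 0.067, limma, adjusted p = 0.3). AT3G17020 had 11.10, 11.20 and 11.16 in 35S:PCO1 and 11.41, 11.35 and 11.34 in wild type. Its arrays within a group hardly differed, with SDs of 0.048 in 35S:PCO1 and 0.037 in wild type (n = 3 each). The log2 change was -0.21 (SE 0.059, limma, adjusted p = 0.273), and its interval of -0.35 to -0.080 leaves out a change as large as that of HRU1.

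AT3G11930 varied more between arrays of 1 genotype than between genotypes. Its log2 signal was 10.55, 10.17 and 10.76 in 35S:PCO1, against 10.74, 10.94 and 10.40 in wild type. The highest 35S:PCO1 array lay above 2 of the 3 wild-type arrays, so the groups overlapped. The log2 change was -0.20 (SE 0.17, 95% interval -0.58 to 0.18, limma, adjusted p = 0.741). Its spread within groups was at percentile 98.5 of all probe sets, and that of HRU1 at percentile 99.

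AT5G14680 had a log2 signal of 8.46, 8.60 and 8.46 in 35S:PCO1 and 8.62, 8.57 and 8.63 in wild type. The array of 35S:PCO1 replicate 2 lay above wild type replicate 2, and the log2 change was -0.10 (95% interval -0.25 to 0.044, limma, adjusted p = 0.639).

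In 4 further genes the means of the genotypes nearly coincided. AT3G53990, whose protein has been described as an RNA and protein chaperone that aids cold tolerance, had 10.51, 10.51 and 10.56 in 35S:PCO1 and 10.47, 10.68 and 10.49 in wild type. Its log2 change was -0.019 (95% interval -0.18 to 0.14). AT3G62550 had a change of -0.0060 (95% interval -0.18 to 0.17) at means of 11.22 in 35S:PCO1 and 11.23 in wild type. The groups of both genes overlapped.

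AT1G11360 had 7.69, 7.85 and 7.79 in 35S:PCO1, and 7.81, 7.79 and 7.72 in wild type. Its log2 change was 0.00060 (95% interval -0.15 to 0.15). AT3G58450 had 4.77, 4.84 and 4.79 in 35S:PCO1, and 4.79, 4.80 and 4.75 in wild type, with a change of 0.024 (95% interval -0.10 to 0.15). This gene was the dimmest of the 10, at percentile 34.8 of mean signal, a range in which RMA compresses differences. Adjusted limma p-values of these 4 genes lay between 0.925 and 0.999, and the signs of the changes of AT3G53990, AT3G62550 and AT1G11360 turned under some scalings, array weights or omissions of 1 array.

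The 95% interval of HRU1, ending at -0.73, overlapped that of none of the 9 other genes, of which AT3G11930 reached the lowest, to -0.58. Intervals of this kind treat each gene separately, so the difference itself was also compared. For this the signal of each other gene was subtracted from that of HRU1 on the same array, which leaves out a scale shift common to both.

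**Figure D2:**
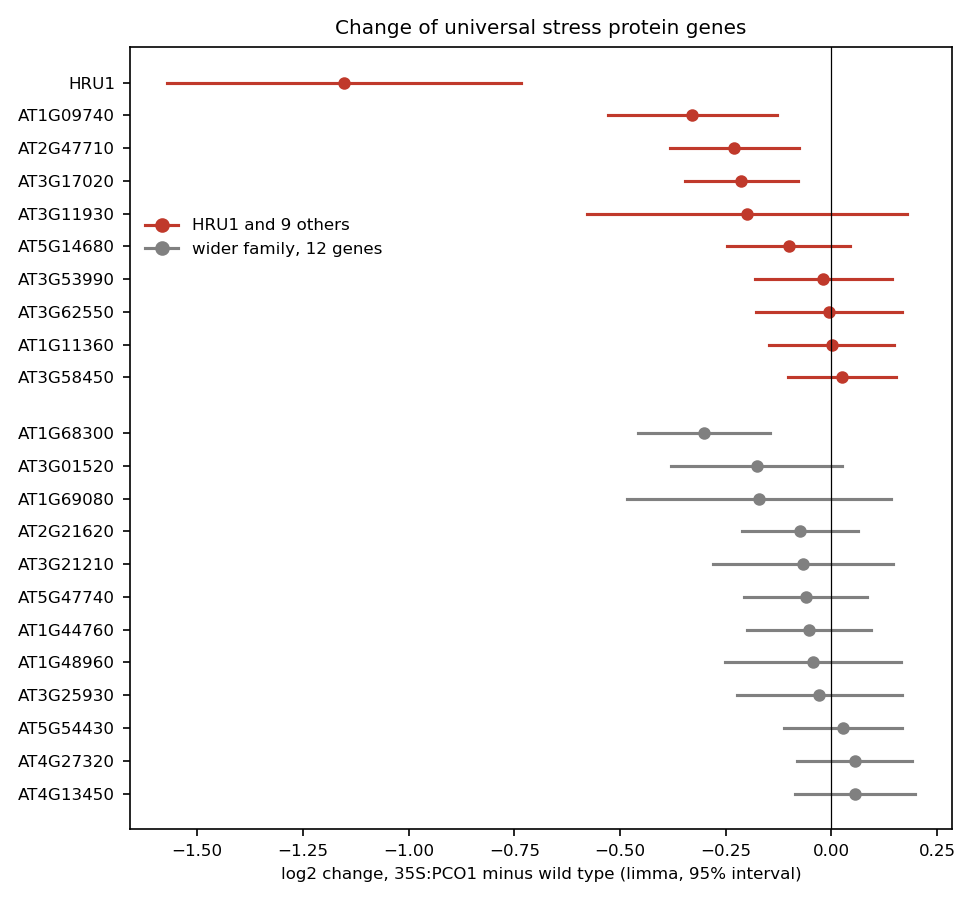
Log2 change in 35S:PCO1 relative to wild type (limma, n = 3 arrays each) with 95% intervals for HRU1 and 9 other universal stress protein genes in red and for 12 further genes of the family in grey. HRU1 at -1.15 stands to the left of all others, whose changes lie between -0.33 and 0.056.

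On every array of 35S:PCO1, HRU1 minus the other gene was lower than on every wild-type array, for each of the 9 genes. The exact 2-sided permutation p was 0.1 in each of the 9 comparisons, the smallest that 3 against 3 arrays can give. The same order, with HRU1 lower, held against 99% of all probe sets, so it does not set the family apart from other genes. The change of the difference ranged from -1.18 against AT3G58450 to -0.82 against AT1G09740.

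A limma fit of these differences gave adjusted p-values from 4.38e-05 to 0.00248 for the 9 genes. It called 99.8% of all probe sets with the change of HRU1 the more negative. All differences share the HRU1 values, which led limma to 1 common SE of 0.27 for every probe set, so these p-values are too small. An ordinary linear model of the same differences, which estimates a spread for each gene by itself and was chosen after the data were seen, called 8 of the 9 differences, against 97% of all probe sets. Adjusted p-values from that model (lmFit, over all 22745 differences) were between 0.0241 and 0.0273 for the 8 genes.

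The exception in the ordinary model was AT1G09740. HRU1 minus AT1G09740 was -0.30, -0.61 and -0.22 in 35S:PCO1 and 0.50, 0.95 and -0.12 in wild type. The values of wild type replicate 3 and 35S:PCO1 replicate 3 lay close together. The difference in change was -0.82 with a 95% interval of -1.75 to 0.10 (adjusted p = 0.0694, lmFit without moderation), so it was not separated from 0 by this model.

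The difference between HRU1 and AT3G11930 had the narrowest interval of the 9 in the ordinary model. HRU1 minus AT3G11930 was -3.85, -3.54 and -3.81 in 35S:PCO1, against -2.77, -2.64 and -2.93 in wild type. In 35S:PCO1 these values scattered like HRU1 alone, with an SD of 0.17 for both, and in wild type they had an SD of 0.15 where HRU1 alone had 0.42 (n = 3 each). The difference in change was -0.95 (SE 0.13, 95% interval -1.31 to -0.60, adjusted p = 0.0241, lmFit without moderation).

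**Figure D3:**
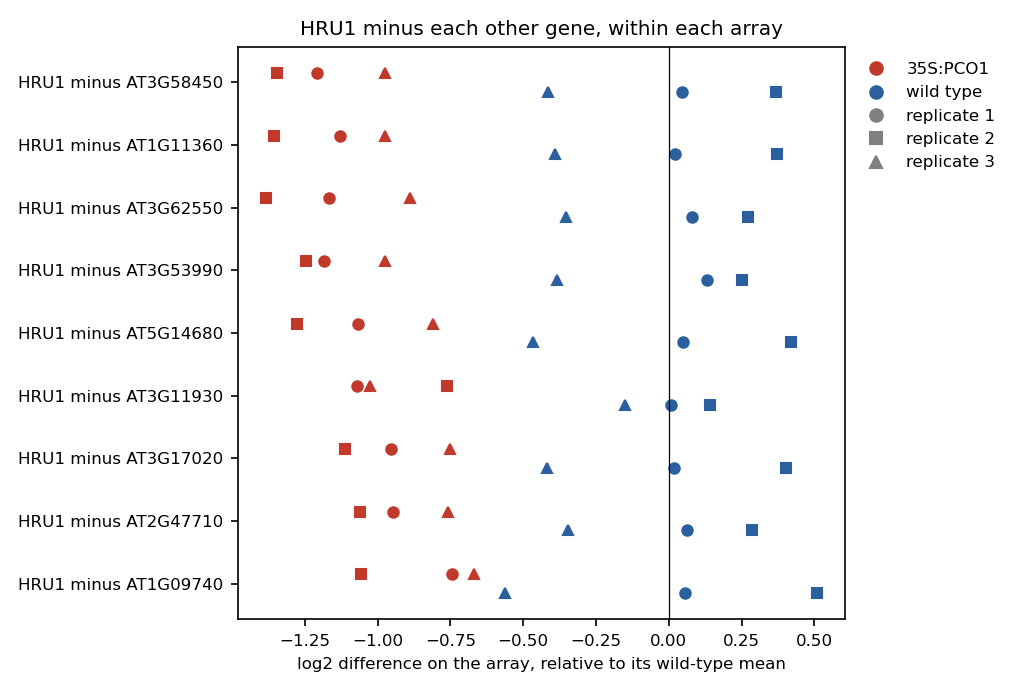
HRU1 minus each of 9 other universal stress protein genes on the same array, in log2 units relative to the wild-type mean of that difference; red is 35S:PCO1, blue is wild type, and symbols mark replicates 1 to 3. All red points lie left of all blue points in each row, with the smallest gap against AT1G09740 and the tightest wild-type group against AT3G11930.

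HRU1 and AT3G11930 shared the order of the arrays within each genotype. Both were highest on replicate 3 and lowest on replicate 2 in 35S:PCO1, and highest on replicate 2 and lowest on replicate 3 in wild type. Of 12 further genes of the family, 1 had the same order, AT1G69080, which was singled out for this after its values were seen. Among the 9 genes followed beside HRU1, AT3G11930 was likewise the only 1 with this order. It was found in 6.98% of all probe sets, so these counts do not set the family apart. Among the 24 low-oxygen genes described below the order was shared by 5. Within wild type the range of HRU1 was 0.83, that of AT3G11930 was 0.54 and that of AT1G69080 was 0.51, while the other 8 genes stayed within 0.24. On the array of wild type replicate 2, the RNA integrity controls, 3 prime less 5 prime in log2 signal, read 0.81 for GAPDH and 1.78 for actin. On the other 5 arrays they read between 0.27 and 0.44 for GAPDH and between 1.37 and 1.52 for actin. Its part in the order of the arrays was not tested.

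**Figure D4:**
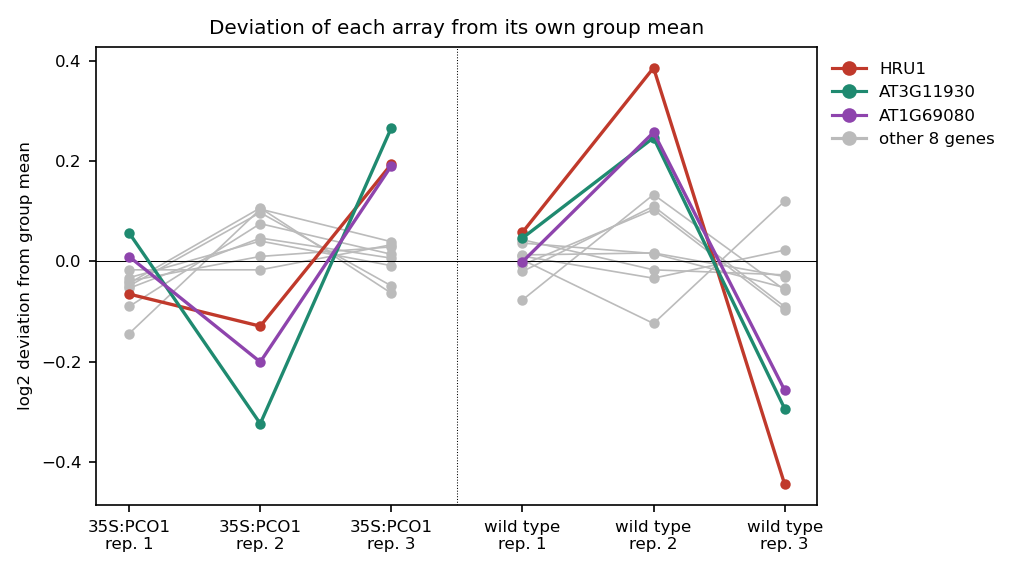
Log2 deviation of every array from the mean of its own group for HRU1, AT3G11930, AT1G69080 and, in grey, the 8 other universal stress protein genes; 35S:PCO1 arrays are on the left and wild-type arrays on the right. The 3 coloured genes share the order of the arrays, with wild-type ranges from 0.51 to 0.83, and the grey genes stay near 0. AT1G69080 was picked for its order from 12 further genes of the family, of which the rest are not drawn.

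A wider list of 14 universal stress protein genes outside these 10 had 12 genes with a probe set assigned to them alone. None of the 12 was called by limma. Of the 12, 1 had an unadjusted p under 0.05 and groups that did not overlap, where 10.4% of all probe sets had such a p and 10.5% did not overlap with 35S:PCO1 lower. The median log2 change was -0.057, and the range was -0.30 to 0.056. AT3G25930, AT5G47740, AT3G21210 and AT4G13450 were dim, at percentiles 6.74, 11.4, 16.4 and 18.5 of mean signal, where RMA compresses differences. A change in these genes could be missed. AT1G68300 had means of 8.72 in 35S:PCO1 and 9.02 in wild type, with a log2 change of -0.30 (SE 0.069, limma, adjusted p = 0.187). It was called with array weights, at -0.33 (limma, adjusted p = 0.0404), a setting that called 255 of all probe sets. AT3G01520 had a change of -0.18 (SE 0.089, limma, adjusted p = 0.545). The difference in change between HRU1 and the other gene was called for all 12 by the ordinary model, with adjusted p-values from 0.0241 to 0.0422, as it was for 97% of all probe sets.

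Genes known to respond to low oxygen are the other set to which HRU1 belongs. Of a list of 48 such genes without HRU1, 24 had a probe set that the annotation assigns to them alone. Of these 24, 11 fell in 35S:PCO1, none rose and 13 were not called (limma). Over all probe sets 0.193% were called lower and 0.0703% higher. The median log2 change of the 24 was -0.74, beside -0.012 over all probe sets. The list comes from studies of low oxygen and was written with results of these arrays known.

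The change of HRU1 lay within the range of this list, with 8 genes more negative and 16 less. The 6 called genes with the largest changes were AT4G10270 (-2.54), AT1G19530 (-2.08), AT1G33055 (-2.03), AT2G17850 (-1.81), AT3G27220 (-1.40) and AT3G10040 (-1.38). AT4G10270 belongs to the wound-responsive protein family and AT3G10040 encodes HRA1, a trihelix factor that attenuates the low-oxygen response. By the ordinary model of within-array differences, the change was more negative than that of HRU1 in 4 of the 24 and less negative in 12, where all probe sets gave 0.0352% and 97%. For the remaining 8 the difference was not separated from 0, with adjusted p-values up to 0.641. Against AT3G10040 the interval of the difference in change reached from -0.76 to 1.21, and against AT3G27220 from -0.37 to 0.88, so these changes could not be told apart in size from that of HRU1.

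**Figure D5:**
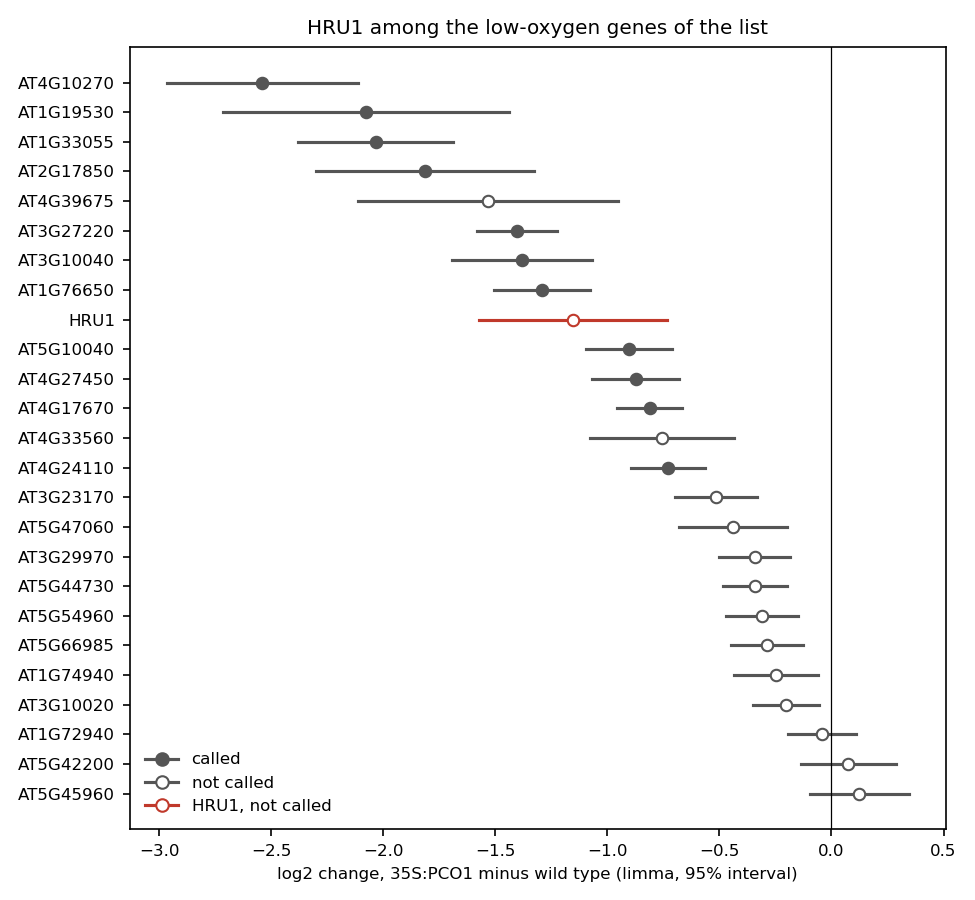
Log2 change in 35S:PCO1 relative to wild type (limma, n = 3 arrays each) with 95% intervals for HRU1, in red, and 24 low-oxygen genes, in grey; filled points were called at an adjusted p under 0.05. HRU1 lies between AT1G76650 and AT5G10040, with 8 genes to its left and a wider interval than both neighbours.

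Few of the genes that act with or after HRU1 in reactive oxygen signalling could be followed. A list held 27 genes of NADPH oxidases, ROP GTPases, their GTPase-activating proteins, antioxidants and factors of the hydrogen peroxide response. Of these, 5 had a probe set that the annotation assigns to them alone. These were 4 genes of GTPase-activating proteins and the zinc finger factor STZ; RBOHD and ROP2 are not analysed here. None of the 5 was called by limma, where 0.264% of all probe sets were, and 1 had an unadjusted p under 0.05, where 10.4% of all did. AT3G11490, which encodes ROPGAP4, a brake on ROP signalling needed for tolerance of low oxygen, had 6.73 ± 0.0062 (SD, n = 3) in 35S:PCO1 and 6.53 ± 0.067 (SD, n = 3) in wild type. Its groups did not overlap, which held with 35S:PCO1 higher in 5.68% of all probe sets. The log2 change was 0.205 (SE 0.060, limma, adjusted p = 0.299). AT5G22400, which encodes another GTPase-activating protein of this kind, had a change of -0.12 (SE 0.077, limma, adjusted p = 0.637). The median change of the 5 was 0.084, which is the value of STZ.

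The genes most like HRU1 over the 6 arrays were sought only outside the 10 genes followed here. None of the nearest 5 was on the wider family list. Likeness was the root-mean-square difference between 2 profiles after each gene's own mean was subtracted, in log2 units. AT5G01870, of the lipid-transfer protein superfamily, was the nearest at 0.13. It had 4.94, 4.85 and 5.01 in 35S:PCO1 and 6.03, 6.40 and 5.88 in wild type, a log2 change of -1.17 (SE 0.12, limma, adjusted p = 0.00537). Its change was close in size to that of HRU1, with a smaller spread between arrays.

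AT1G19540 followed at 0.21, with a log2 change of -0.99. The next 3 were AT4G33560 at 0.22, AT5G10040 at 0.24 and AT4G39675 at 0.24, all 3 from the low-oxygen list, with log2 changes of -0.76, -0.90 and -1.53. AT4G39675 was larger in change than HRU1 and, like HRU1, was not called (SE 0.26, limma, adjusted p = 0.0709). This likeness rests on 6 arrays in 2 groups and says nothing beyond the shared profile.

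Genes near HRU1 on its chromosome had changes near 0. The 2 nearest measured genes on each side in the TAIR10.1 gene order were AT3G03230, AT3G03240, AT3G03290 and AT3G03305. Their log2 changes were -0.023, 0.062, -0.095 and -0.041, with overlapping groups, 95% intervals that reached no lower than -0.24, and adjusted limma p-values from 0.659 to 0.953. AT3G03240 and AT3G03290 were dim, at percentiles 12.1 and 4.75 of mean signal, where RMA compresses differences, so a change in them could be missed. The genes immediately beside HRU1 had no probe set assigned to them alone and are not analysed here.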

How the data were processed

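The deposited values are log2 signals that the authors made with RMA, per the submitters' processing notes; software, version and probe definition are not given in the sources used here. RMA subtracts background, equalises the distributions of the arrays and summarises probes by median polish, so it removes shifts common to an array. Of 22810 probe sets, 64 controls were left out. The platform annotation gave 13513 of the rest 1 gene, 503 several and 8730 none. Of the 1-gene probe sets, 13436 matched a gene number in the TAIR10.1 table, used for names and order only. Probe sequences were not used, so cross-hybridisation within the family was not tested, and no promoter or protein sequences were analysed here.

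Samples were grouped by title. 35S:PCO1 was compared with wild type in limma 3.58.1 under R 4.3.3 (lmFit, then eBayes), 2-sided, with Benjamini-Hochberg adjustment over all 22746 probe sets; intervals are 95%. For a locus with several probe sets the one of highest mean was taken. Differences of HRU1 minus every other probe set were fitted likewise, and, as that fit proved too lenient, by lmFit without eBayes. Single values were compared by exact permutation of the 6 arrays. The procedure was tested on simulated data. Named are all 10 genes, and up to 6 called genes of each list or else the 2 with the largest change. Also named are the 5 genes outside these 10 most like HRU1, and its 2 measured neighbours on each side. The genes, lists and tests were chosen with earlier results of these data known. The number of arrays limits the precision.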

Additional observations from a re-analysis of the deposited data

How the results depend on the processing

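Each choice was varied singly. HRU1 was called under 3 of 14 settings: with arrays centred on their median (log2 change -1.145), with array weights (-1.18) and without wild type replicate 3. Its change ranged from -1.375 to -0.96 when 1 array was left out, and its adjusted p from 0.00332 to 0.373 over the 14. The number of the 10 genes called was accordingly 1 with centring, with array weights and at a threshold of 0.10, and 0 to 1 with 1 array left out. None of the other 9 was called under any of these settings. The signs of 3 changes near 0 turned: AT3G62550 was 0.0017 with centring and 0.0061 with repeated quantile normalization, and with array weights AT3G53990 was 0.012 and AT1G11360 -0.051. With 1 array left out these genes ranged from -0.060 to 0.050, from -0.056 to 0.048 and from -0.037 to 0.045, and the median of the 10 genes from -0.16 to -0.098.

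Of the 9 differences between HRU1 and another gene, all that could be fitted were called by the moderated limma fit under every setting. With no choice varied that fit called 99.8% of all probe sets, with p-values that are too small, so these calls say little. The ordinary linear model was run with no other choice varied. Only AT1G09740 was lost in it (-0.82, adjusted p = 0.0694, lmFit without moderation), and it called 97% of all probe sets. The number of all probe sets called, 60, became 255 with array weights, 28 at a threshold of 0.01 and 23 to 60 with 1 array left out. The lowest of these, 23, left out wild type replicate 1, and the omission of 35S:PCO1 replicate 1 gave 24 and that of 35S:PCO1 replicate 3 gave 33. Array weights, whose estimation stopped before full convergence, called 18 of the low-oxygen genes and 1 of the wider family list; leaving out 1 array called 8 to 14 and 0. With the replicate number as a block 26 probe sets were called, and HRU1 had an adjusted p of 0.327. Deviations of same-numbered arrays correlated at -0.059, -0.22 and -0.26, which gave no sign of a pairing by number. With 3 arrays in each group this cannot show whether same-numbered samples were handled together. AT3G58450 gave no value above the 40th percentile of signal, and each of the 10 genes has 1 probe set, so averaging probe sets left their values as they were. The cause of these shifts was not tested. Dim signal limits the comparison of AT3G58450, of the dim genes of the wider family list and of the dim neighbours of HRU1.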
